A study of Mus musculus with 19 samples.

Results

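The genes described here encode enzymes that oxidize or reduce alcohols, aldehydes, ketones and steroids in the liver. They were chosen by name, as every gene of the deposited value table whose annotated symbol begins with Adh, Aldh, Akr, Fmo or Hsd17b followed by a number, which gave 53 of the 16593 genes named in the table. The families hold 4 alcohol dehydrogenases (Adh), 20 aldehyde dehydrogenases (Aldh), 14 aldo-keto reductases (Akr), 5 flavin-containing monooxygenases (Fmo) and 10 17-beta-hydroxysteroid dehydrogenases (Hsd17b). Hepatic RNA was measured on 1-colour Illumina MouseRef-8 v2.0 beadchips, on which the brightness of beads that carry a probe reports the amount of the matching transcript. All 19 arrays were of individual male Swiss-Webster mice aged 7 weeks that had been fasted, and livers were taken 4 h after an intraperitoneal injection. The DMSO group (n = 6) received the vehicle alone. The IDFP group (n = 8) received isopropyl dodecylfluorophosphonate at 10 mg/kg, an organophosphorus inhibitor of MAGL and FAAH, which break down the endocannabinoids 2-AG and anandamide respectively. The AM251/IDFP group (n = 5) received AM251 at 10 mg/kg, an antagonist of the cannabinoid receptor CB1, before IDFP at 10 mg/kg. No group given AM251 alone was among these arrays, so that an effect of AM251 by itself cannot be told apart from an effect on the response to IDFP. The study asked which hepatic responses to IDFP depend on CB1.

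Alcohol dehydrogenases oxidize ethanol, retinol and other alcohols to aldehydes with NAD, and aldehyde dehydrogenases carry the aldehydes on to acids, so that the families often act in sequence on the same substrate. Aldo-keto reductases work mostly in the other direction, reducing aldehydes and ketones with NADPH, and several of them act on steroids, prostaglandins and bile acid precursors. Flavin-containing monooxygenases insert an oxygen atom into nitrogen- and sulphur-containing compounds, and enzymes named Hsd17b interconvert keto and hydroxy groups of steroids or fatty acids. Hepatocytes express many members of all 5 families strongly.

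Of the 53 genes, 40 were tested because a probe of theirs stood above the background on most arrays of at least 1 group. These were 3 Adh, 15 Aldh, 10 Akr, 3 Fmo and 9 Hsd17b genes. In all, 37 were above the background on most arrays of every group, and 32 were above it on every array. The exceptions among the tested genes were Aldh1a3, which passed through DMSO alone, Aldh1l2, which passed through AM251/IDFP alone, and Hsd17b1, which passed through DMSO and AM251/IDFP. The 13 genes not tested were Adh7, Aldh1a2, Aldh1a7, Aldh3a1, Aldh3b3, Aldh9a1, Akr1c18, Akr1c20, Akr1c21, Akr1cl, Fmo2, Fmo9 and Hsd17b3. All signals below are intensities after background correction with an offset of 16. They are not on the scale of the deposited values, whose detection threshold was 17.5 to 17.6 units. On the scale of the signals, the threshold lay near 59. Aldh1a3 was above it in DMSO mouse 4 at 59.2 and below it in IDFP mouse 2 at 58.8. Changes are differences of mean log2 signal from the limma fit with their standard error (SE). A change was called when its p-value, adjusted over all 9346 genes tested by the Benjamini-Hochberg method, was under 0.05. In whole-liver RNA, fewer cells of a type and less RNA per cell cannot be told apart. Arrays correlated with one another at r of 0.967 to 0.990 over all probes, and all 19 were used. The median number of genes above the background was 9064 for DMSO, 9042 for IDFP and 9062 for AM251/IDFP. The authors had already quantile normalized the values, so these counts cannot show differences in array quality. The summed signal of the 9 hepatocyte markers tested ranged from 122603 to 131125 in DMSO, from 114866 to 136202 in IDFP and from 126910 to 134856 in AM251/IDFP. Of these 9, Hnf4a was lower for IDFP against DMSO (-0.43, adjusted p = 0.0237), and 1 was called in each of the other comparisons. Of 43 tested markers of other cell types, 2 (4.65%) were called for IDFP against DMSO, 4 (9.3%) for AM251/IDFP against IDFP and 4 (9.3%) for AM251/IDFP against DMSO. Of all genes tested, 16.3%, 10.8% and 9.88% were called in these comparisons.

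Few of the family members were called. For IDFP against DMSO, 4 of 40 members (10%) were called, beside 16.3% of all genes tested. Hsd17b11 and Hsd17b12 were higher with IDFP, as were 6.75% of all genes, and Aldh3b1 and Aldh5a1 were lower, as were 9.53% of all genes. For AM251/IDFP against IDFP, 2 of 40 members (5%) were called, beside 10.8% of all genes. Fmo5 was higher, as were 5.97% of all genes, and Adh4 was lower, as were 4.85%. For AM251/IDFP against DMSO, 3 of 40 members (7.5%) were called, beside 9.88% of all genes. Fmo5 was higher, as were 3.66% of all genes, and Adh4 and Aldh5a1 were lower, as were 6.22%. At an unadjusted p under 0.05 there were 8, 8 and 11 of the 40 members in these comparisons, beside 30.8%, 24% and 24.6% of all genes. The shares of members called after adjustment lay below those of all genes, and no difference in shares was tested. At the unadjusted threshold the counts included Aldh1a3 in both comparisons with DMSO and Aldh1l2 in AM251/IDFP against IDFP. Each passed the detection filter only through the group where its mean was highest. The unadjusted counts are thus given as description, and their shares were not compared. The median SE of members was larger, at 0.140, 0.148 and 0.157 beside 0.113, 0.119 and 0.126 for all genes. The 3 comparisons share samples with one another, so that calls of a gene in 2 of them are not independent. The counts depended on single mice. For IDFP against DMSO they ran from 0 without DMSO mouse 3 or 5 to 7 without DMSO mouse 1, for AM251/IDFP against IDFP they fell to 1 without AM251/IDFP mouse 1, 3 or 4, and for AM251/IDFP against DMSO they ran from 1 without DMSO mouse 3 or 5 to 6 without DMSO mouse 6.

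**Figure D1:**
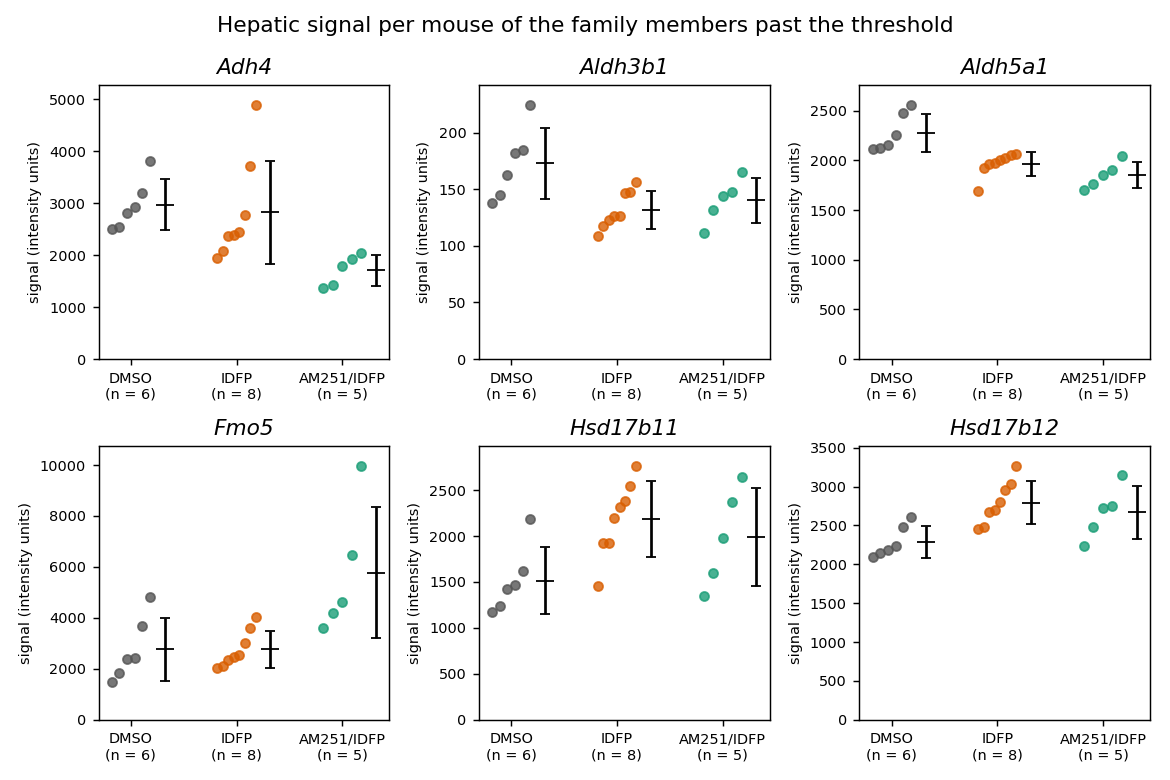
Signal in intensity units (vertical axis, from 0) of the 6 members called in at least 1 comparison, with 1 point per mouse and, to the right of each group, the mean with its SD. Adh4 in AM251/IDFP lay below every DMSO mouse, Fmo5 was highest in AM251/IDFP mouse 4 at 9962, and Aldh5a1 in both IDFP-treated groups lay below every DMSO mouse.

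The sequences upstream of the 3 called members with the largest changes are shown because these members carry the results that follow. They are RefSeq promoters of build GRCm38.p6, from 250 bases before the start site to 50 bases from it, and 42 of the 53 genes had one. Adh4 lies at chr3:138415247-138415546 on the + strand, Fmo5 at chr3:97628769-97629068 on the + strand and Hsd17b11 at chr5:104021747-104022046 on the - strand. Capitals mark the letters AGGTCA (a hexamer bound by nuclear receptors), CCAAT (the CCAAT box), GGGCGG (the GC box) and TATAAA (the TATA box), each searched on both strands.
Adh4: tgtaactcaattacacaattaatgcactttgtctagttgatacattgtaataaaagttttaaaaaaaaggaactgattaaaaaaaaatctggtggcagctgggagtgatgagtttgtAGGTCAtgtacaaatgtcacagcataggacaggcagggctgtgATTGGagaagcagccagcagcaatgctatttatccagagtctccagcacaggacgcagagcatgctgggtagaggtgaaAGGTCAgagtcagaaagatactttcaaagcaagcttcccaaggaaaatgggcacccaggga
Fmo5: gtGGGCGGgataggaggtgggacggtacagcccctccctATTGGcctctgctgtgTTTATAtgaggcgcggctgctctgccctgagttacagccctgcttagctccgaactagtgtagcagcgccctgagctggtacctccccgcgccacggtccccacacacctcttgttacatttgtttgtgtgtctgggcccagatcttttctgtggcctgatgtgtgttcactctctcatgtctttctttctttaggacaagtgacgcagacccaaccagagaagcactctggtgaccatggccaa
Hsd17b11: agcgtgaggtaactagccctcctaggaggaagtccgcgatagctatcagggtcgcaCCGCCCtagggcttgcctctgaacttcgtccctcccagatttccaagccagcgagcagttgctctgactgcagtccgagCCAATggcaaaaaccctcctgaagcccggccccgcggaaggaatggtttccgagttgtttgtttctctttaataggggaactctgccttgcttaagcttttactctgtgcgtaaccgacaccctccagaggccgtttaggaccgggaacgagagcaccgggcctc
The Adh4 promoter held AGGTCA at bases 118 and 240 and CCAAT in reverse at base 161, counted from 1 at the 5′ end, and no marked letters overlapped. The Fmo5 promoter held GGGCGG at base 3, CCAAT in reverse at base 40 and TATAAA in reverse at base 56. The Hsd17b11 promoter held GGGCGG in reverse at base 57 and CCAAT at base 136. Of the 32851 promoters of the table, 16.3% held AGGTCA, 37.4% CCAAT, 35.7% GGGCGG and 13.6% TATAAA, and of the 42 promoters of family members, 10, 27, 16 and 7 did. A match describes the letters and not a binding site.

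Among the alcohol dehydrogenases, only Adh4 was called, in both comparisons of mice given AM251 before IDFP. Adh4 encodes the class II enzyme of the liver, which oxidizes ethanol at high concentrations and retinol. Its signal in AM251/IDFP mice 1 to 5 was 1369, 1921, 1432, 2042 and 1796. In DMSO it ranged from 2506 to 3814 with a median of 2873, and in IDFP from 1953 to 4884 with a median of 2413. Every AM251/IDFP mouse was thus below every DMSO mouse, whereas the highest AM251/IDFP signal exceeded the lowest IDFP signal. Groups that do not overlap were found for 4.88% of all genes in AM251/IDFP against DMSO, and for 3 members (Adh4, Aldh5a1 and Hsd17b10), and in AM251/IDFP against IDFP for 4.6% of all genes and 0 members. The change was -0.68 (SE 0.18, adjusted p = 0.0198) for AM251/IDFP against IDFP and -0.80 (SE 0.19, adjusted p = 0.0151) for AM251/IDFP against DMSO, or 0.626-fold and 0.576-fold. For IDFP against DMSO, the change of Adh4 was -0.12 with a 95% interval of -0.48 to 0.24 (adjusted p = 0.691). Two-sided exact permutation tests over mice, chosen after the call was known, gave unadjusted p-values of 0.00777 over 1287 splits and 0.00216 over 462 splits. The call for AM251/IDFP against IDFP was lost without AM251/IDFP mouse 1 or 3, with an adjusted p of up to 0.0633, and that for AM251/IDFP against DMSO was kept without any single mouse, with an adjusted p of up to 0.0447. A single probe measured Adh4.

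The other alcohol dehydrogenases tested did not pass the threshold in any comparison. Adh1, the class I enzyme that carries most ethanol oxidation in the liver, ranged from 11486 to 15693 in DMSO, from 10701 to 17776 in IDFP and from 10778 to 12128 in AM251/IDFP. Its change was -0.28 (SE 0.11, adjusted p = 0.108) for AM251/IDFP against IDFP and -0.15 (SE 0.12, adjusted p = 0.470) for AM251/IDFP against DMSO. Adh5, the glutathione-dependent formaldehyde dehydrogenase, ranged from 2263 to 3731 in DMSO, from 2640.01 to 3781 in IDFP and from 2299 to 3300.2 in AM251/IDFP. Its change for AM251/IDFP against DMSO was -0.01 with a 95% interval of -0.28 to 0.26. A second, dimmer probe of Adh5 gave -0.28 (SE 0.27) there and -0.28 (SE 0.25) for AM251/IDFP against IDFP. The ratios below used the brighter probe. The genes of the family lie together on chromosome 3 in the RefSeq annotation. The change of Adh4 was set against those of Adh1 and Adh5 on the ratio of signals within each mouse, with the two-sided exact permutation test. Adh4 was picked because it was called in these same values, which favoured a difference beforehand. The adjusted p-values do not cover that choice, so the tests describe the size of the difference and are not support for it. Relative to DMSO, with AM251/IDFP, Adh4 fell by 0.65 more than Adh1 on the log2 scale (SE 0.18, exact p = 0.00649, adjusted p = 0.026 over 8 such tests) and by 0.79 more than Adh5 (SE 0.21, exact p = 0.00649, adjusted p = 0.026). Relative to IDFP, the differences of change were -0.39 (SE 0.17) and -0.57 (SE 0.25), each with an exact test adjusted p = 0.0613.

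Fmo5 was the called member with the largest rise. Fmo5 encodes a flavin-containing monooxygenase of the liver that, unlike other members of its family, catalyses Baeyer-Villiger oxidations of ketones to esters. Its signal in AM251/IDFP mice 1 to 5 was 6459, 4203, 4633, 9962 and 3592. In DMSO it ranged from 1498 to 4817 with a median of 2402, and in IDFP from 2024 to 4038 with a median of 2497. Of the AM251/IDFP mice, 4 were above every IDFP mouse, and DMSO mice 1 and 6 at 4817 and 3662 reached into the AM251/IDFP range. The change was 1.00 (SE 0.26, adjusted p = 0.0171) for AM251/IDFP against IDFP and 1.07 (SE 0.28, adjusted p = 0.0209) for AM251/IDFP against DMSO, or 2.00-fold and 2.10-fold, with exact permutation p-values of 0.00233 and 0.026. For IDFP against DMSO it was 0.07 with a 95% interval of -0.45 to 0.59. The call for AM251/IDFP against IDFP was lost without AM251/IDFP mouse 4 (adjusted p = 0.0600), and that for AM251/IDFP against DMSO was lost without DMSO mouse 3 or 5 or AM251/IDFP mouse 4, with an adjusted p of up to 0.0629. A second, dimmer probe of Fmo5 gave 0.84 (SE 0.34, unadjusted p = 0.0209) for AM251/IDFP against IDFP and 0.44 (SE 0.36, unadjusted p = 0.237) for AM251/IDFP against DMSO, where the mean over both probes had an adjusted p of 0.0940.

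Both other monooxygenases tested were not called. Fmo1, which oxygenates many drugs in the mouse liver, ranged from 2369.7 to 4272 in DMSO, from 2206 to 4557 in IDFP and from 2762 to 4481 in AM251/IDFP, with a change of 0.21 (SE 0.19) for AM251/IDFP against IDFP and 0.13 (SE 0.20) for AM251/IDFP against DMSO. Fmo4 ranged from 109 to 180 over all mice, with changes of 0.17 (SE 0.10) and 0.03 (SE 0.11). Fmo1 and Fmo4 lie on chromosome 1 with Fmo2 and Fmo9, and Fmo5 lies on chromosome 3. By the exact permutation test on ratios within mice, the change of Fmo5 exceeded that of Fmo4 by 0.83 (SE 0.37, adjusted p = 0.0476) for AM251/IDFP against IDFP and by 1.05 (SE 0.40, adjusted p = 0.0476) for AM251/IDFP against DMSO. Against Fmo1 the difference of change was 0.79 (SE 0.40, adjusted p = 0.0676, exact test) and 0.94 (SE 0.38, adjusted p = 0.0519, exact test). Fmo5 was likewise picked because it was called in these same values, and the adjusted p-values do not cover that choice.

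Of the 43 markers of other cells, 9.3% were called against IDFP and 9.3% against DMSO with AM251/IDFP, beside 10.8% and 9.88% of all genes. Of 5 tested neutrophil markers, Retnlg, S100a8 and S100a9 were higher in AM251/IDFP than in DMSO, with a median change of 1.36 over the 5, and their summed signal ranged from 610.2 to 1443 in DMSO, from 901 to 1618 in IDFP and from 1341 to 6872 in AM251/IDFP. Camp, Mmp8, Elane and Mpo were not above the background. Of 8 tested Kupffer cell markers, Clec4f and Timd4 were lower in AM251/IDFP than in IDFP (-0.42 each), Marco was at 0.66 without passing the threshold (adjusted p = 0.0619), C1qb was at 0.01, and the median of the list was -0.13. The endothelial marker Lyve1, 1 of 8 tested, was higher in AM251/IDFP than in IDFP by 0.69 (adjusted p = 0.0460), and Clec4g of the same list was lower in AM251/IDFP than in DMSO by a change of -0.43 (adjusted p = 0.0303). The summed signal of 3 tested markers of pancreas, adipose tissue and muscle ranged from 1482 to 2222 in DMSO, from 1816 to 2529 in IDFP and from 1322 to 17628 in AM251/IDFP, with 0 of the 3 called. The hepatocyte gene Tat, a tyrosine aminotransferase, was higher in AM251/IDFP than in DMSO by 1.60 (adjusted p = 0.0137), and Hnf4a, a transcription factor of hepatocytes, was higher in AM251/IDFP than in IDFP by 0.46 (adjusted p = 0.0307). The part of these genes in the changes of Adh4 and Fmo5 was not tested.

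The 15 aldehyde dehydrogenases tested held both members called lower for IDFP against DMSO, which were 2 of the 40 members, beside 9.53% of all genes. Aldh5a1, the succinate semialdehyde dehydrogenase that completes the breakdown of the transmitter GABA, ranged from 2111 to 2556 in DMSO with a median of 2204 and from 1688 to 2065 in IDFP with a median of 1992. In AM251/IDFP mice 1 to 5 it was 1759, 2046, 1703, 1854 and 1902. Every mouse given IDFP, with or without AM251, was below every DMSO mouse, a separation shown by 4.23% of all genes for IDFP against DMSO. The change was -0.21 (SE 0.07, adjusted p = 0.0463, exact permutation p = 0.000333 over 3003 splits) for IDFP against DMSO and -0.30 (SE 0.08, adjusted p = 0.0243, exact permutation p = 0.00216) for AM251/IDFP against DMSO. Between AM251/IDFP and IDFP it was -0.08 with a 95% interval of -0.24 to 0.07. The call for IDFP against DMSO was lost without any 1 of 13 mice (DMSO 2 to 5, IDFP 2 to 8, AM251/IDFP 1 and 5), with an adjusted p of up to 0.124, and that for AM251/IDFP against DMSO without DMSO mouse 3, 4 or 5 or AM251/IDFP mouse 3, with an adjusted p of up to 0.0690. A second probe gave changes of -0.02 and 0.12 in these comparisons, but its mean signal of 58.1 lay at the detection threshold, where a change can hardly be measured. With the mean over both probes the adjusted p was 0.296 and 0.552.

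Aldh3b1, which oxidizes aldehydes derived from lipids, was the other member called lower with IDFP. It ranged from 138 to 224 in DMSO with a median of 172, from 109 to 157 in IDFP with a median of 127, and was 148, 132, 112, 144 and 165 in AM251/IDFP mice 1 to 5. The highest 3 signals were in DMSO mice, and the groups overlapped. The change for IDFP against DMSO was -0.38 (SE 0.11, adjusted p = 0.0261, exact permutation p = 0.00633), and the call was lost without DMSO mouse 3, 4 or 5 or IDFP mouse 2, with an adjusted p of up to 0.0850. Its second probe gave -0.10 (SE 0.09), and the mean over both probes had an adjusted p of 0.0678. Its change was -0.30 (SE 0.13, adjusted p = 0.156) for AM251/IDFP against DMSO.

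A pair of aldehyde dehydrogenases lay close to the threshold for IDFP against DMSO without passing it. Aldh1l1, the cytosolic 10-formyltetrahydrofolate dehydrogenase of one-carbon metabolism, ranged from 1923 to 3990 in DMSO with a median of 2489, from 2461 to 4383 in IDFP with a median of 3682, and from 3123 to 4383 in AM251/IDFP, with a change of 0.46 (SE 0.16, adjusted p = 0.0501). All 4 probes of Aldh1l1 gave a positive change for IDFP against DMSO, from 0.25 to 0.46. Aldh18a1, the synthase of pyrroline-5-carboxylate in proline synthesis, ranged from 67.1 to 135 in DMSO and from 44.6 to 78.7 in IDFP, with a change of -0.50 (SE 0.17, adjusted p = 0.0527). It was above the background on 17 of the 19 arrays. Aldh3a2, the fatty aldehyde dehydrogenase, had a change of 0.37 (SE 0.15, adjusted p = 0.107) for IDFP against DMSO and of -0.35 (SE 0.16, adjusted p = 0.191) for AM251/IDFP against IDFP.

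The aldehyde dehydrogenases of ethanol metabolism were not called. Aldh2, the mitochondrial enzyme that clears acetaldehyde, ranged from 25014 to 28134 over all mice. It was the brightest member, and after quantile normalization some mice shared 1 value, as DMSO mouse 1 and IDFP mouse 8 did at 28134. Whether this narrowed its intervals was not tested. The 95% intervals of the Aldh2 changes ran from -0.14 to 0.09 for IDFP against DMSO. They ran from -0.14 to 0.11 for AM251/IDFP against IDFP and from -0.17 to 0.09 for AM251/IDFP against DMSO. Aldh1b1, its mitochondrial relative, had changes of 0.24, -0.19 and 0.05 in the same order, with SE of 0.16 to 0.17. Aldh1a1, a cytosolic enzyme that makes retinoic acid from retinaldehyde, had changes of 0.03, -0.16 and -0.14 with SE of 0.16 to 0.18. Aldh1a3, another retinaldehyde dehydrogenase, had a signal of 39.4 to 65.6 and changes of -0.25, -0.03 and -0.29, with adjusted p-values of 0.0962, 0.891 and 0.122. The enzymes of amino acid breakdown were not called in any comparison either. Aldh4a1 in proline breakdown had changes of -0.01, -0.12 and -0.13, Aldh6a1 in valine breakdown had 0.04, -0.07 and -0.03, Aldh7a1 in lysine breakdown had -0.16, 0.00 and -0.16, and Aldh8a1 in tryptophan breakdown had -0.02, 0.10 and 0.08. Aldh7a1 was above the background on 12 of the 19 arrays, so its changes say little. Of the remaining members, Aldh16a1 had changes of 0.02, 0.12 and 0.14, and Aldh1l2, the mitochondrial counterpart of Aldh1l1, had -0.06, 0.28 and 0.22, with a signal of 42.8 to 77.8.

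**Figure D2:**
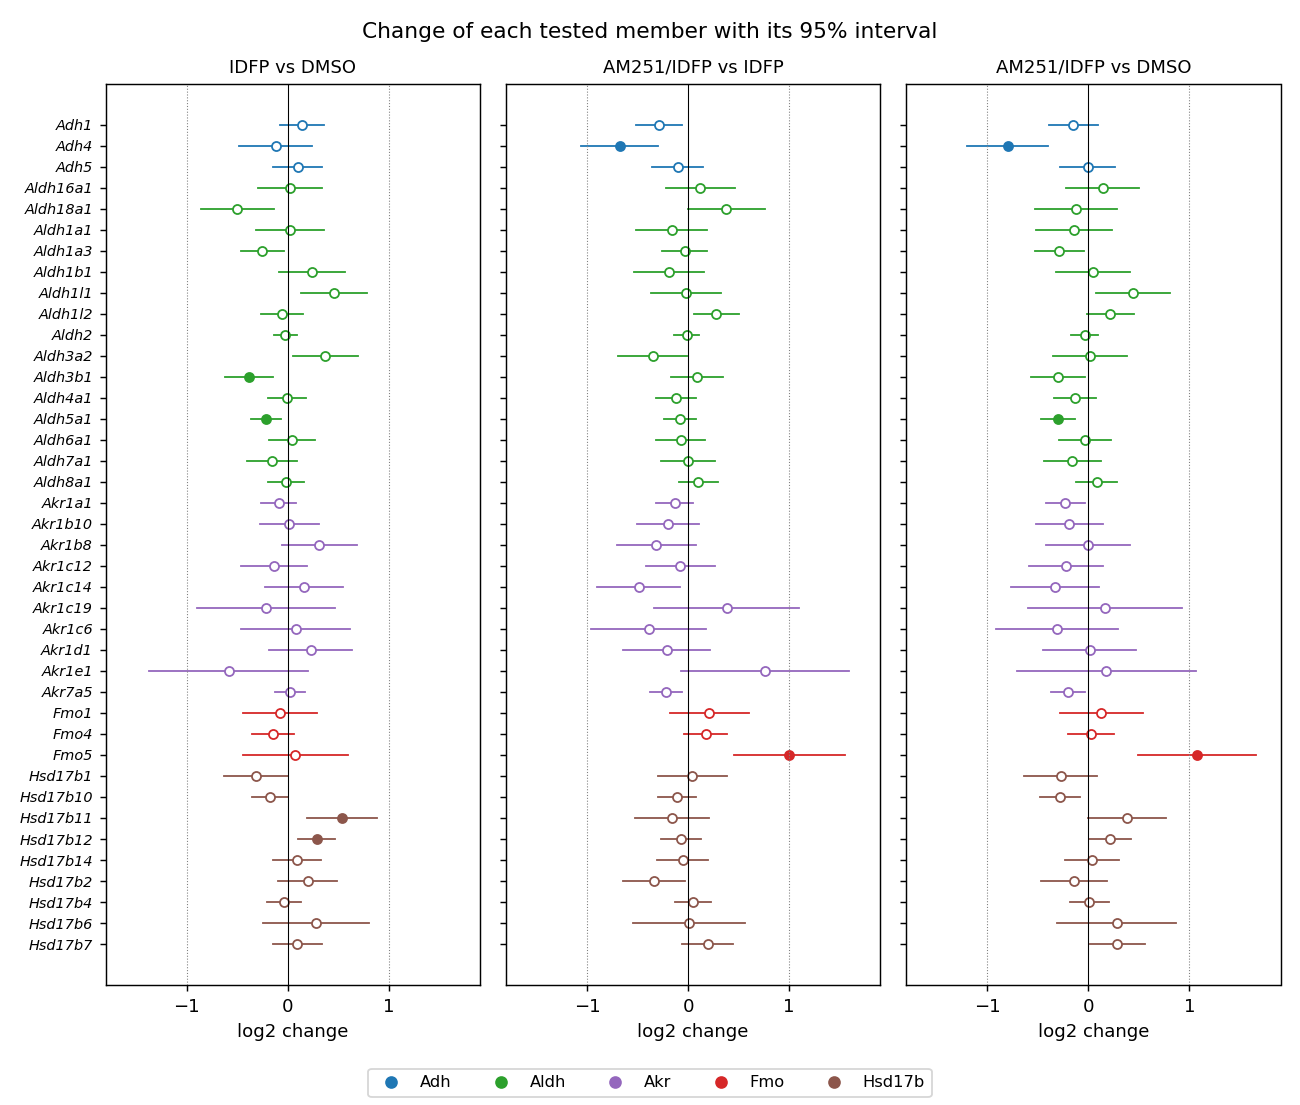
Log2 change (horizontal axis) with its 95% interval of each of the 40 tested members in the 3 comparisons, coloured by family, with filled points for changes past the adjusted threshold and dotted lines at -1 and 1. Filled points are 4, 2 and 3 in the comparisons from left to right, and most intervals lie between the dotted lines.

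None of the 10 aldo-keto reductases tested was called in any comparison. Their median change was 0.02 for IDFP against DMSO, -0.21 for AM251/IDFP against IDFP and -0.19 for AM251/IDFP against DMSO, beside -0.00, -0.01 and -0.01 over all genes tested, and 8 of 10 had a negative change for AM251/IDFP against IDFP. Akr7a5, which reduces aflatoxin dialdehyde and succinate semialdehyde, had the smallest p-value of the family. Its signal in AM251/IDFP mice 1 to 5 was 9043, 8235, 8259, 7827 and 9389, whereas it ranged from 8542 to 10593 in IDFP with a median of 10313 and from 8738 to 10347 in DMSO. The change for AM251/IDFP against IDFP was -0.22 (SE 0.08, adjusted p = 0.0674). Akr1a1, an aldehyde reductase that in mice takes part in vitamin C synthesis, had a change of -0.23 (SE 0.09, adjusted p = 0.138) for AM251/IDFP against DMSO, where its other 2 detected probes gave 0.02 and 0.14. The other 2 probes of Akr7a5 gave -0.16 and -0.14 for AM251/IDFP against IDFP. For AM251/IDFP against DMSO they gave 0.04 and 0.09, where the brightest probe gave -0.20. For IDFP against DMSO they gave 0.20 and 0.23, where the brightest gave 0.02. Over the 11 members with several detected probes and the 3 comparisons, all probes of a gene had the same sign in 23 of 33 cases.

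The steroid-metabolizing aldo-keto reductases had wide intervals. Akr1c14, a 3-alpha-hydroxysteroid dehydrogenase, had a change of -0.49 (SE 0.20, adjusted p = 0.123) for AM251/IDFP against IDFP, and a second probe gave -0.75 (SE 0.27). Akr1c6, which acts on estradiol and testosterone at carbon 17, had changes of 0.08, -0.39 and -0.31 with SE of 0.26 to 0.29 in the order IDFP against DMSO, AM251/IDFP against IDFP and AM251/IDFP against DMSO. Akr1d1, the 5-beta-reductase of bile acid synthesis, had changes of 0.23, -0.21 and 0.01 with SE of 0.20 to 0.22. Akr1c12 had changes of -0.14, -0.08 and -0.22, and Akr1c19 had -0.22, 0.38 and 0.17 with SE of 0.33 to 0.37. Whether probes of the closely related Akr1c genes bind one another's transcripts was not tested. Akr1e1, which reduces 1,5-anhydrofructose, showed the widest intervals of all members, with a change of -0.58 (95% interval -1.37 to 0.20) for IDFP against DMSO and 0.76 (95% interval -0.07 to 1.59) for AM251/IDFP against IDFP. Its signal was 491, 101, 215, 231 and 62.0 in AM251/IDFP mice 1 to 5. The aldose reductase-like genes Akr1b8 and Akr1b10 had signals between 50.4 and 196, and changes of 0.31 and 0.01 for IDFP against DMSO, -0.31 and -0.20 for AM251/IDFP against IDFP, and -0.00 and -0.19 for AM251/IDFP against DMSO.

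**Figure D3:**
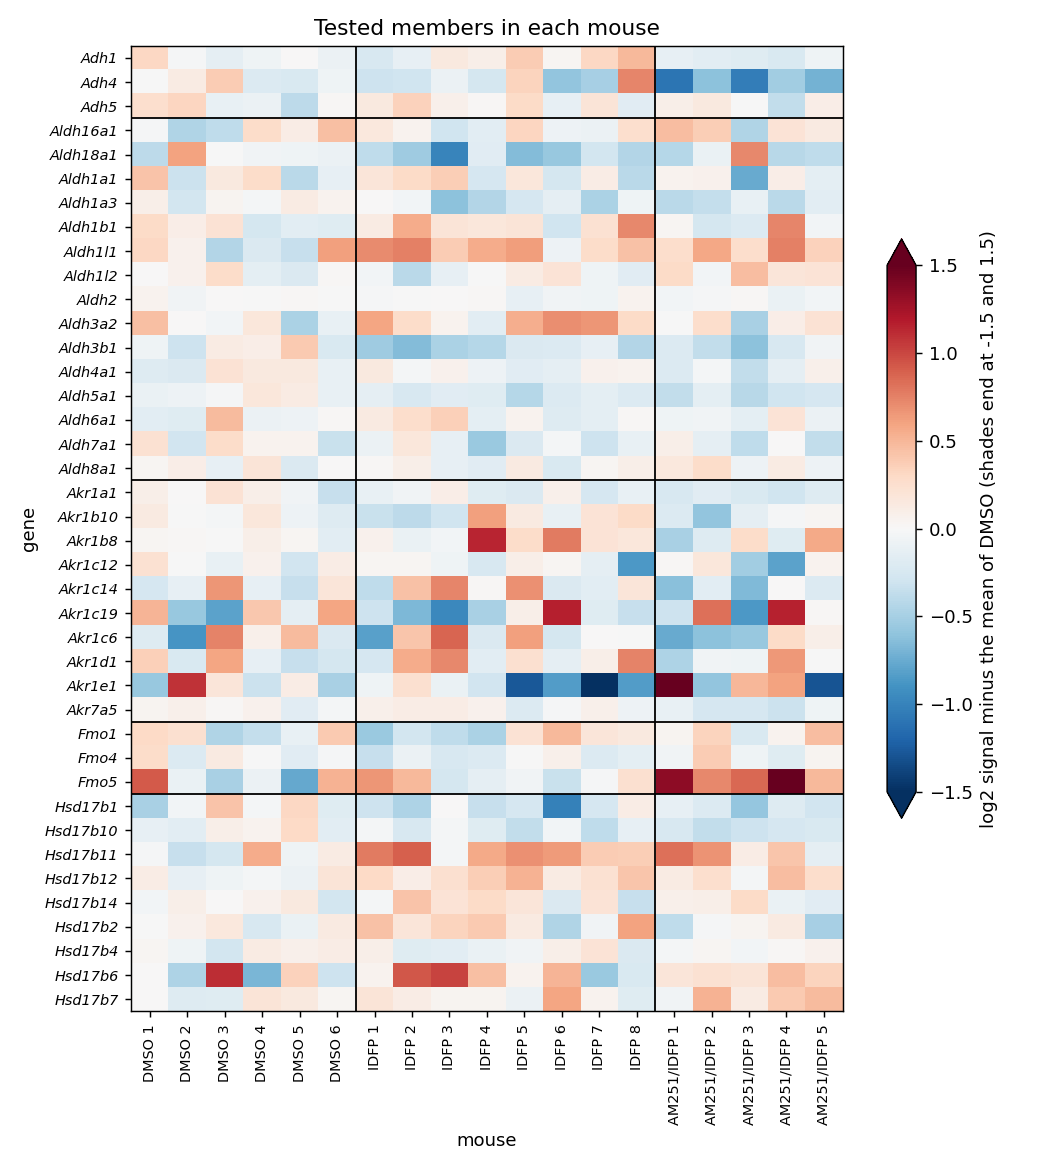
Log2 signal of each tested member (rows, grouped by family) in each of the 19 mice (columns, grouped by treatment) minus the mean of the DMSO mice, in red where higher and blue where lower. Adh4 is blue in all 5 AM251/IDFP mice and Fmo5 is red in them, while Akr1e1 ranges from red to blue within single groups.

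The Hsd17b family held both members called higher for IDFP against DMSO, which were 2 of the 40 members, beside 6.75% of all genes. Hsd17b11 encodes a short-chain dehydrogenase found on lipid droplets. Its signal ranged from 1169 to 2187 in DMSO with a median of 1439.9 and from 1453 to 2762 in IDFP with a median of 2256, and it was 2637, 2373, 1598, 1983 and 1345 in AM251/IDFP mice 1 to 5. IDFP and DMSO overlapped, with DMSO mouse 4 as high as 2187 and IDFP mouse 3 as low as 1453. The change for IDFP against DMSO was 0.54 (SE 0.17, adjusted p = 0.0304, exact permutation p = 0.0103), or 1.45-fold. The other 2 detected probes of Hsd17b11 gave 0.51 (SE 0.18) and 0.58 (SE 0.16). The call was lost without DMSO mouse 2, 3 or 5 or IDFP mouse 1, 2 or 5, with an adjusted p of up to 0.0751. Between AM251/IDFP and IDFP the change was -0.16 with a 95% interval of -0.52 to 0.21, and for AM251/IDFP against DMSO it was 0.38 (SE 0.19, adjusted p = 0.212).

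Hsd17b12 encodes the 3-ketoacyl-CoA reductase of very long-chain fatty acid elongation. It ranged from 2093 to 2610.2 in DMSO with a median of 2211 and from 2448 to 3264 in IDFP with a median of 2752, and it was 2484, 2720.3, 2232, 3151 and 2747 in AM251/IDFP mice 1 to 5. The 2 highest DMSO mice overlapped with the lowest IDFP mice. The change for IDFP against DMSO was 0.29 (SE 0.09, adjusted p = 0.0306, exact permutation p = 0.00333), or 1.22-fold, and the call was lost without DMSO mouse 2, 3, 4 or 5 or IDFP mouse 4, 5 or 8, with an adjusted p of up to 0.0754. Between AM251/IDFP and IDFP the change was -0.07 with a 95% interval of -0.26 to 0.12, and for AM251/IDFP against DMSO it was 0.21 (SE 0.10, adjusted p = 0.184).

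The other 7 members of the Hsd17b family were not called. Hsd17b10, a mitochondrial enzyme of isoleucine breakdown, was 4086, 3753, 3899.8, 4055 and 4124 in AM251/IDFP mice 1 to 5, all below the DMSO range of 4318 to 5926, with a change of -0.28 (SE 0.10, adjusted p = 0.0669) for AM251/IDFP against DMSO. Hsd17b4, the peroxisomal multifunctional enzyme of fatty acid and bile acid precursor oxidation, had 95% intervals from -0.21 to 0.13 for IDFP against DMSO and from -0.18 to 0.20 for AM251/IDFP against DMSO. Hsd17b7, which acts in cholesterol synthesis, had changes of 0.09, 0.20 and 0.29 in the order IDFP against DMSO, AM251/IDFP against IDFP and AM251/IDFP against DMSO, the last with an adjusted p of 0.168. The steroid enzymes were Hsd17b1, which makes estradiol, with changes of -0.32, 0.04 and -0.27, Hsd17b2, which inactivates estradiol, with 0.20, -0.34 and -0.14, Hsd17b6 with 0.28, 0.01 and 0.28, and Hsd17b14 with 0.09, -0.05 and 0.04. Their smallest adjusted p was 0.157, for Hsd17b2 in AM251/IDFP against IDFP, and Hsd17b1 was above the background on 10 of the 19 arrays.

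Sizes of change were compared over all families. The 95% interval lay within -1 and 1 on the log2 scale, a 2-fold change in either direction, for 39 of 40 members in IDFP against DMSO, 36 in AM251/IDFP against IDFP and 37 in AM251/IDFP against DMSO. Over all genes tested, 94.5%, 94.3% and 94.7% of intervals did so. The members beyond it were Akr1e1 in all 3 comparisons, Adh4 and Fmo5 in both comparisons of AM251/IDFP, and Akr1c19 in AM251/IDFP against IDFP. The median size of change was 0.14, 0.16 and 0.17 for members and 0.15, 0.14 and 0.15 for all genes. The median signed change of members was 0.02, -0.07 and -0.02. By family, the median for AM251/IDFP against IDFP was -0.28 for Adh, -0.02 for Aldh, -0.21 for Akr, 0.21 for Fmo and -0.05 for Hsd17b, and for IDFP against DMSO it lay between -0.08 for Fmo and 0.10 for Adh.

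**Figure D4:**
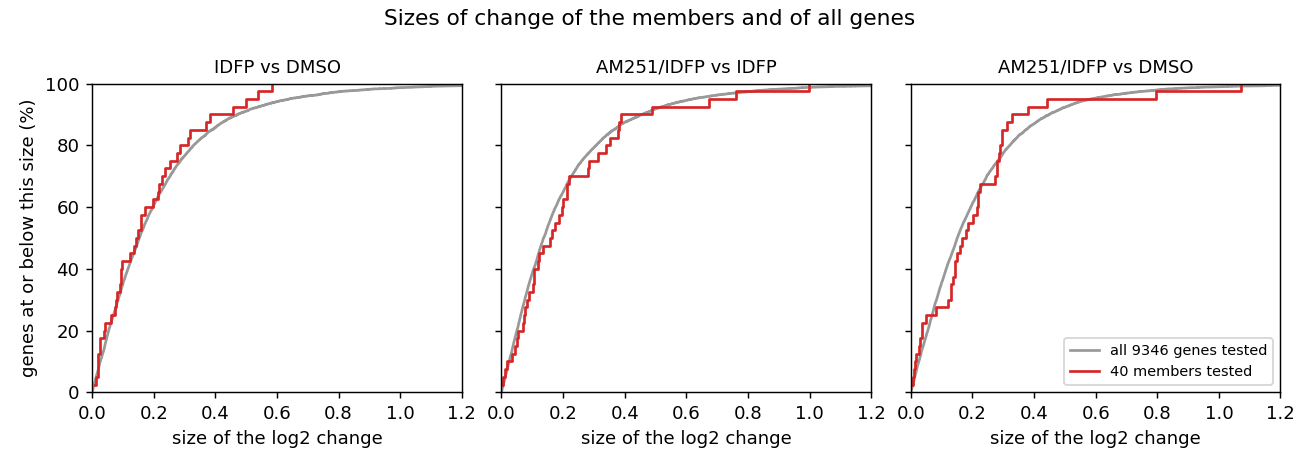
Share of genes (vertical axis, percent) whose log2 change was at or below the size on the horizontal axis, for the 40 tested members (red) and all 9346 genes tested (grey) in each comparison. The curves run close together, with median sizes of 0.14 and 0.15 for IDFP against DMSO.

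Lists of neighbouring pathways were read against the same shares of all genes (16.3%, 10.8% and 9.88%). In retinoid handling 13.3%, 6.67% and 0% of the genes tested were called in the 3 comparisons, in carbonyl and quinone metabolism 5.56%, 11.1% and 5.56%, and among other steroid and bile acid oxidoreductases 6.67%, 13.3% and 13.3%. In retinoid handling, 2 of 15 genes were called for IDFP against DMSO, the retinol dehydrogenases Rdh16 at 0.41 (SE 0.12, adjusted p = 0.0262) and Rdh5 at -0.31 (SE 0.10, adjusted p = 0.0460). In AM251/IDFP against IDFP 1 of 15 was, Lrat, which stores retinol as its ester, at -0.91 (SE 0.24, adjusted p = 0.0154), and in AM251/IDFP against DMSO 0 of 15 were. Lrat is also a marker of stellate cells, of which it was the 1 called among 9 tested. In carbonyl and quinone metabolism, 1 of 18 genes was higher for IDFP against DMSO, the quinone reductase Nqo2 at 0.37 (SE 0.12). In AM251/IDFP against IDFP, xanthine dehydrogenase (Xdh) rose by 0.66 (SE 0.18) and Dhdh fell by 0.48 (SE 0.12), and for AM251/IDFP against DMSO Dhdh fell by 0.56 (SE 0.13). Of 15 other steroid and bile acid oxidoreductases, 1 was called for IDFP against DMSO, Dhrs11 at 0.51 (SE 0.12). In AM251/IDFP against IDFP, Hsd3b5, a 3-beta-hydroxysteroid dehydrogenase of the male mouse liver, fell by 1.66 (SE 0.34, adjusted p = 0.00308), and Hsd3b7, which acts in bile acid synthesis, by 0.38 (SE 0.11). For AM251/IDFP against DMSO, Hsd3b7 was at -0.41 (SE 0.12) and Hsdl1 at -0.42 (SE 0.13).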

How the data were processed

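Liver RNA of 19 mice was measured on 1-colour Illumina beadchips. The deposited values are intensity values on a linear scale to which the authors had applied quantile normalization and background subtraction in BeadStudio 3.2, so that 30.1% of them lie below 0. Another, non-normalized table has 38 columns for 19 arrays with names that match no single mouse, and was not used here. The mice had been randomized over chips, but which mouse was on which chip is not given in the sources used here, so chips could not be a block. The plan had assumed detection p-values. Detection was taken instead from the negative values of each array, as a signal above 1.64 times their root mean square. Of 25697 probes, 23978 have 1 gene and 1719 are unnamed, none was named from several genes, and 23963 matched RefSeq (GRCm38.p6), which changed 0 symbols.

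Values were corrected by normexp (offset 16), log2 transformed and then quantile normalized. A gene was tested through its brightest detected probe where most arrays in any 1 group showed that probe as detected. R 4.3.3 with limma 3.58.1 (lmFit, eBayes) fitted the 3 groups together without covariates, with Benjamini-Hochberg adjustment over 9346 genes and a threshold of 0.05. Intervals are 95%. The number of arrays limits the precision. Members, gene lists and tests were chosen with earlier results of these data known. All members past the threshold in a comparison are named with their values, the other tested members with ranges or changes, and genes of neighbouring lists where they passed it. The exact permutation tests and the promoter search were chosen after the values were seen, and are not independent support. Lists of markers covered hepatocytes, Kupffer cells, endothelium, stellate cells, cholangiocytes, neutrophils, erythroid cells, lymphocytes, and 1 list for muscle, adipose tissue and pancreas. Alternatives were an offset of 50, median scaling, the authors' values with a floor of 10, other filters on detection, averaging the probes of a gene, trended and robust variances, weighted arrays, 2-group fits, blocking on replicate number, a threshold of 0.01 and leaving out each array. The fit was tested on simulated data. Exact tests and plots were made in Python 3.11.15 (numpy 2.4.6, matplotlib 3.10.9).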

Additional observations from a re-analysis of the deposited data

Results flagged for a closer look

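In 11 of the 120 groups of signals looked at (9.17%), 1 mouse lay far from the others of its group by Dixon's ratio of gap to range. The ratio was taken on signals that were not log transformed. Chance gives about 1 in 20 only where such signals are normally distributed. That was not tested, so 9.17% is not read as an excess. The signal was high in DMSO mouse 1 for Adh1 (15693), in DMSO mouse 2 for Akr1e1 (322) and Aldh18a1 (135), and in DMSO mouse 3 for Aldh6a1 (12084). It was high in IDFP mouse 6 for Akr1c19 (2463) and Hsd17b7 (3890.4), and low in IDFP mouse 8 for Akr1c12 (1867) and in IDFP mouse 5 for Aldh5a1 (1688). It was high in AM251/IDFP mouse 3 for Aldh18a1 (146) and in AM251/IDFP mouse 4 for Aldh1b1 (357) and Aldh6a1 (10005). Of these genes, Aldh5a1 was called, and the mouse in question lay farther from DMSO than the other IDFP mice.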

How the results depend on the processing

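The 9 called changes kept their direction under every alternative run, and with all mice none passed an adjusted p of 0.01, which Adh4 did without IDFP 8 (0.00462) and Fmo5 without DMSO 1 (0.00549), both for AM251/IDFP against DMSO. Of 11 alternatives other than leaving out mice, the call was lost for Aldh5a1 in 6 (IDFP against DMSO) and 5 (AM251/IDFP against DMSO), for Fmo5 in 3 (AM251/IDFP against DMSO) and 1 (AM251/IDFP against IDFP), for Hsd17b12 in 3, for Aldh3b1 and Hsd17b11 in 2 each and for Adh4 in 1 per comparison. At that threshold the calls were 0 members in each comparison and 710, 442 and 198 genes in all for IDFP against DMSO, AM251/IDFP against IDFP and AM251/IDFP against DMSO. For IDFP against DMSO, 2 members were called with no filter on dim probes, with the mean over detected probes and with the replicate block, and between 0 and 7 when 1 mouse was left out (0 without DMSO 3 or 5, 1 without DMSO 2 or 4 or IDFP 2 or 5, 2 without IDFP 8, 7 without DMSO 1). For AM251/IDFP against IDFP, the range was 1 to 3 members, with 1 without AM251/IDFP 1, 3 or 4, and 667 to 1100 genes, with 667 without AM251/IDFP 3. For AM251/IDFP against DMSO, 1 member was called with the mean over probes and with the fit of 2 groups, which called 450 genes in all, and the ranges were 1 to 6 members (1 without DMSO 3 or 5, 6 without DMSO 6) and 408 to 1198 genes, with 408 without DMSO 3, 552 without DMSO 4, 503 without DMSO 5, and 559, 539 and 547 without AM251/IDFP 2, 3 and 4. For all genes in IDFP against DMSO the range was 1049 to 1750. Same-numbered mice correlated at -0.19 to 0.26 over 16 pairs, 5 of them over 0.1. In 5 of the 16, the same-numbered mouse was the best match in the other group. These values cannot settle whether the numbers stand for a pairing or a shared batch, since no reference was set for them. The replicate block called 2 members in each comparison and 525 genes in AM251/IDFP against IDFP. With it, the calls of Aldh5a1 in both comparisons and of Hsd17b12 were lost. The median of Hsd17b was -0.14 for AM251/IDFP against IDFP with the block and 0.13 for AM251/IDFP against DMSO with detection required on all arrays of a group, and that of Akr for AM251/IDFP against DMSO was -0.025 with the mean over probes. The cause of these shifts was not tested. Of members never called and with an unadjusted p of 0.05 or more, 10 of 32, 9 of 32 and 13 of 29 changed sign under some setting, none with a change over 0.09, 0.10 and 0.18 in size.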
